A study of Mus musculus with 12 samples.

Results

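The cytosolic ribosomal protein genes encode the proteins of the large and small subunits of the ribosome that translates nuclear mRNAs. They were taken by symbol, as names formed of Rpl or Rps and a number with Rpsa, Rplp0, Rplp1 and Rplp2, without Rps27a and Rps27l, and with a mean of at least 20 counts over the 12 libraries. Of 86 names that fit, 78 reached the minimum, out of 48709 genes in the table: 48 of the large subunit (Rpl) and 30 of the small subunit (Rps). All 78 were among the 12455 genes tested. The rule uses names and mean counts and no difference between groups, although it was set with earlier results of these data known.

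RNA was sequenced from peritoneal macrophages of the mouse, phagocytes taken from the belly cavity, in 4 groups of 3 libraries. WT 0 h and WT 3 h came from wild-type mice and MKO 0 h and MKO 3 h from Usp5 myeloid knockout mice, which lack in myeloid cells a deubiquitinase that disassembles free polyubiquitin chains. The 3 h groups had 3 h of lipopolysaccharide (LPS), the ligand of Toll-like receptor 4, and the 0 h groups are the unstimulated cells, although the treatment label names LPS for every sample. The Cre driver, the age and sex of the mice, and any pooling of animals are not stated. The labels also leave it unsaid whether replicates were separate animals, so each p-value reflects no more than the spread among these libraries, which may be technical. The comparisons are LPS in each genotype, genotype at each time, and the interaction, which is the LPS change in MKO minus that in WT.

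Ribosomal proteins are needed in near equal numbers and their mRNAs are short, abundant and long lived. Most of these mRNAs begin with a C followed by an uninterrupted run of pyrimidines, the 5′ terminal oligopyrimidine tract or TOP, through which mTORC1 and the RNA-binding protein Larp1 set their translation. Control by this route acts on the use of the mRNAs by ribosomes, so levels of mRNA show only part of it.

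Levels are CPM, counts scaled to a common library size with TMM factors, which centre the bulk of genes between libraries. Differences are log2 fold changes with a standard error (SE) from edgeR's quasi-likelihood test, and p-values are adjusted by Benjamini-Hochberg over all 12455 genes. A gene is called higher or lower at an adjusted p under 0.05. Counts of members at an unadjusted p under 0.05 are given without a share over all genes, which was not computed. Every called gene also passes that threshold, so these counts cannot be set against the shares called. In bulk RNA, fewer cells of a type and less RNA per cell cannot be told apart.

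Total counts ran from 14762709 to 20778862. Usp5 was at 107, 106 and 111 CPM for WT at 3 h and 27.9, 27.97 and 26.8 for MKO, with a genotype difference of -1.90 at 0 h and -1.97 at 3 h. At 0 h the third replicate stood apart from the other replicates in WT and in MKO alike, with a chi-square per degree of freedom of 15.6 to 27.9 against 1.93 to 2.68 between replicates 1 and 2 of each group. The 7 macrophage markers summed to 8109 to 9779 CPM in WT and 5835 to 6729 CPM in MKO, while 5 of 6 markers of large peritoneal macrophages (Gata6, Timd4, Vsig4, Cxcl13 and Prg4), all 6 of T and NK cells, all 6 of mesothelial cells and fibroblasts and 4 of 5 of erythroid cells were under 1 CPM in every library. The 5 mast cell and eosinophil markers summed to 3.31 to 5.41 CPM in WT and 12.1 to 16.3 CPM in MKO, with Mcpt4 and Cma1 under 1 CPM in every library. The 6 B and plasma cell markers summed to 15.8 to 21.2 CPM in WT and 25.6 to 40.3 CPM in MKO, with Ms4a1 under 1 CPM in every library. The 5 neutrophil markers summed to 106 to 178 CPM in WT and 135 to 212 CPM in MKO, and Ly6g was under 1 CPM. The 4 dendritic cell markers at 0 h summed to 3.24 to 4.40 CPM in WT and 3.93 to 4.93 CPM in MKO, which overlap. At 3 h they summed to 6.89 to 7.51 CPM in WT and 5.05 to 5.75 CPM in MKO. The part of these marker levels in the genotype differences of the ribosomal protein genes was not tested.

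The TOP tract lies at the start of the mRNA, and the choice of genes did not use it. The windows below, from RefSeq (GRCm38.p6), hold the 15 bases before an annotated start and the 15 from it on, on the mRNA's strand. Capitals mark a C followed by at least 4 bases that are each C or T, from the start where such a stretch begins there and otherwise the nearest one. They are shown because Rps6 is the classic example of the tract and the others had some of the lowest genotype estimates at 3 h. Rpl36a, Rps26 and Rpl24 are not shown, although their estimates of -0.62, -0.52 and -0.48 were lower than that of Rpl35 (-0.47). None of these 3 has the stretch at its annotated start, so the windows shown hold the tract more often than the members do. Rpl35a is given at the second of its 3 annotated starts and Rps24 at the first of 2.
Rps6, chr4:86857353-86857382, minus strand: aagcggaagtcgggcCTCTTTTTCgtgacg
Rpl35, chr2:39005117-39005146, minus strand: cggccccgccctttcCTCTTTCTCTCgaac
Rpl35a, chr16:33056467-33056496, plus strand: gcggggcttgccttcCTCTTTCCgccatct
Rps15a, chr7:118116133-118116162, minus strand: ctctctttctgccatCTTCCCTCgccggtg
Rps27, chr3:90213634-90213663, minus strand: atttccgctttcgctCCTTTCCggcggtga
Rps24, chr14:24490663-24490692, plus strand: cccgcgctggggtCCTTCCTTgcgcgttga
Rpl41, chr10:128549154-128549183, minus strand: cacacgggccggctcggaagtgacgacacc
Rps28, chr17:33824548-33824577, minus strand: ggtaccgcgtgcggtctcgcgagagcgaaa
The first 5 have the stretch at the annotated start, Rps24 has one that begins 2 bases before it, and the windows of Rpl41 and Rps28 hold none.

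RefSeq start windows were matched for 59 of the 78 genes. The stretch was found exactly at an annotated start in 13 of these (22.03%), searched on the mRNA's strand only. The same letters were found at the start of 812 of 27018 genes in the table (3.005%) and of 0 of 68 mitochondrial ribosomal protein genes. Among 16 genes of elongation and other mRNAs known for a TOP tract, 4 had it. A stretch beginning within 15 bases of a start was found for 41 of 59 (69.5%) against 44.9% of all genes. An annotated start can differ from the one these macrophages use by some bases, and no match says only that the letters are not at that place.

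After 3 h of LPS most ribosomal protein genes of both subunits were lower in MKO than in WT. Of 78 genes, 59 were called lower and 0 higher, where 23% of all tested genes were called lower and 19.8% higher. DESeq2 called 64 lower and 0 higher, where 22.2% of all genes were called lower and 20.1% higher. In edgeR 70 genes were at an unadjusted p under 0.05. The median log2 fold change was -0.36, against -0.01 over all genes tested, and 77 of 78 estimates were below 0. For 75 genes every MKO 3 h library was below every WT 3 h library, as it was for 32.5% of all genes (28.7% were apart the other way). The small subunit gave 24 of 30 lower with a median of -0.36, and the large subunit 35 of 48 lower with a median of -0.36.

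These counts rest on the scaling and on the libraries. With library size alone, which lifts the median of all genes by 0.25 at 3 h, the median of the ribosomal protein genes was -0.11 against 0.24 over all genes, and 3 genes were called lower, namely Rpl41, Rpl36a and Rps24. Without MKO 3 h replicate 3 the count was 24, without WT 3 h replicate 2 it was 36, and with replicates 1 and 2 of each group summed it was 19. In these settings 9.63%, 18.9%, 19.1% and 14.1% of all genes tested were called lower, in the same order. All genes called lower in these 4 settings were among the 59.

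**Figure D1:**
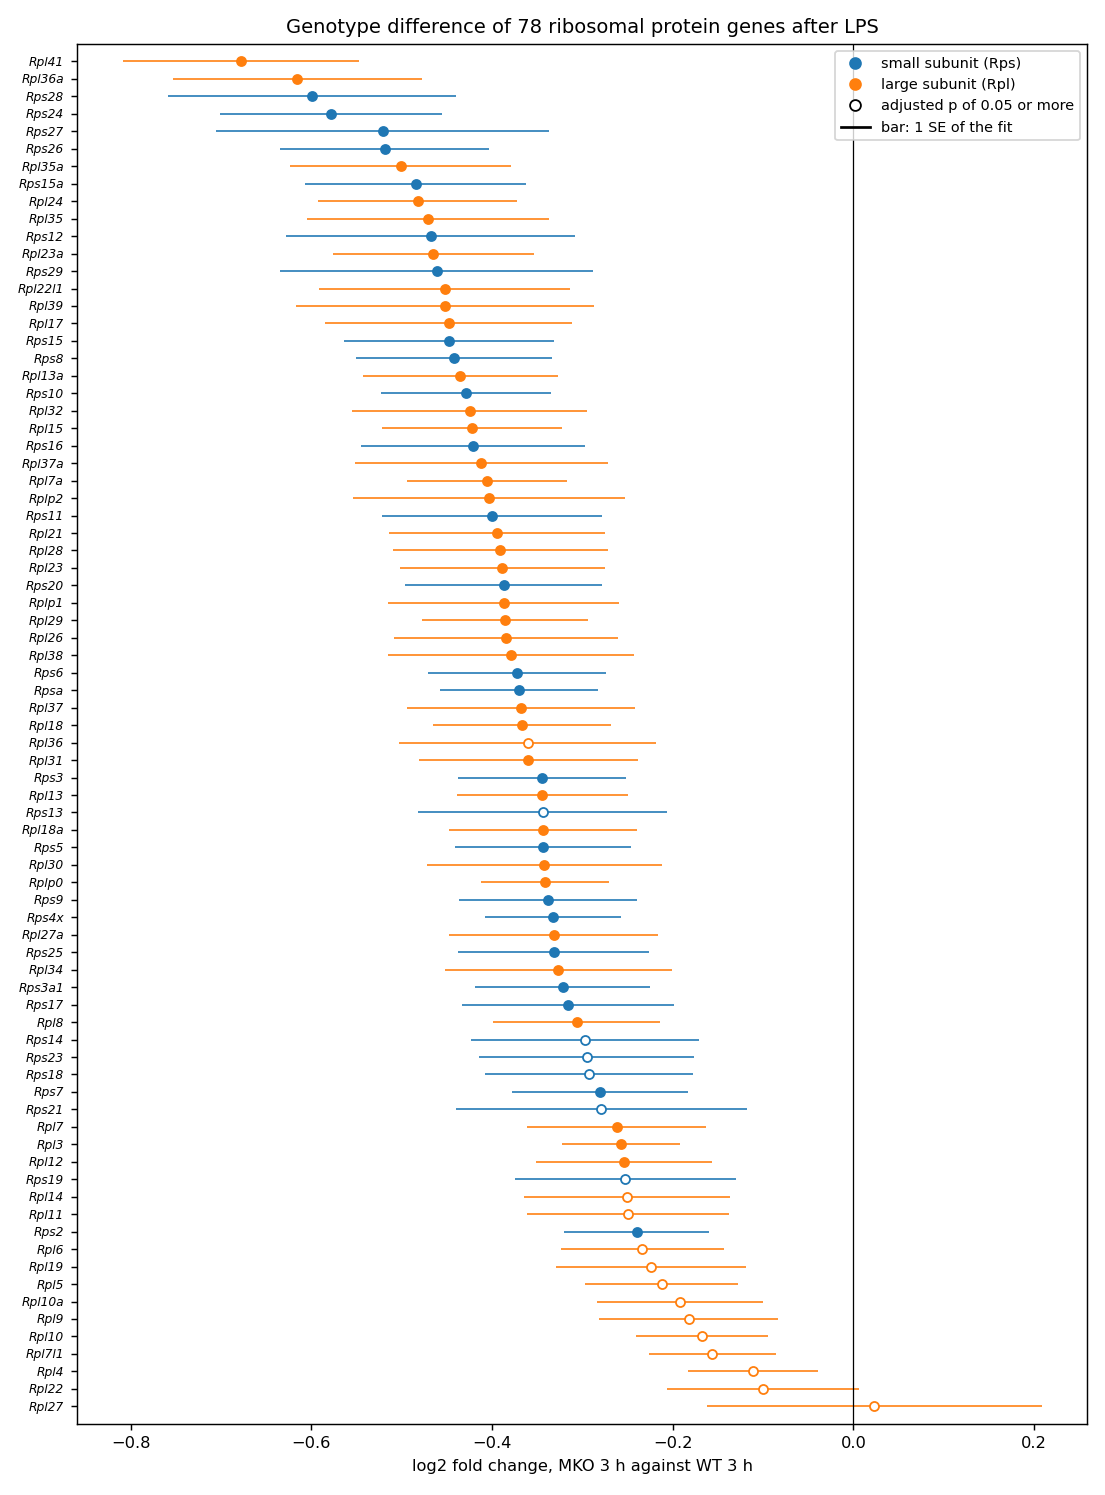
Log2 fold change of MKO 3 h against WT 3 h for each of the 78 genes, ranked; points are the estimates, bars 1 SE, blue the small and orange the large subunit, and open points an adjusted p of 0.05 or more. The estimates run from -0.68 (Rpl41) to 0.02 (Rpl27), and 19 points are open.

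Rpl41, a very short basic protein of the large subunit at its border with the small one, had the lowest estimate of all. It was measured at 553, 573 and 448 CPM in WT at 0 h, 540.0, 565 and 547 in WT at 3 h, 373, 341 and 508 in MKO at 0 h and 357, 378 and 298 in MKO at 3 h. The MKO 3 h libraries all lay below those of WT 3 h, whereas at 0 h replicate 3 of MKO was above the lowest WT library. At 3 h its log2 fold change was -0.68 (SE 0.13, adjusted p = 0.00087), a level of 62.5% of WT. At 0 h it was -0.36 (SE 0.13, adjusted p = 0.046).

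Among small subunit genes Rps28, Rps24, Rps26 and Rps27 had the lowest estimates. Rps28, whose protein lies at the exit of the mRNA channel, was at 109, 124 and 105 CPM in WT at 0 h, 112, 121 and 117 in WT at 3 h, 97.5, 86.5 and 127 in MKO at 0 h and 85.1, 90.8 and 55.6 in MKO at 3 h (log2 fold change -0.60, SE 0.16, adjusted p = 0.0076 at 3 h). MKO 3 h replicate 3 was the lowest of all 12 libraries here, and MKO 0 h replicate 3 the highest. Rps24, needed for the maturation of 18S rRNA, was at 604, 606 and 632 CPM for WT at 3 h and 412, 441 and 380.3 for MKO, where all MKO libraries were below all WT libraries (log2 fold change -0.58, SE 0.12, adjusted p = 0.0017). Rps26, which contacts mRNA upstream of the start codon, gave -0.52 (adjusted p = 0.0025). Rps27, a zinc finger protein, was at 134, 144 and 142 CPM for WT at 3 h and 109.6, 116 and 68.2 for MKO, where replicate 3 was the lowest by far, with a difference of -0.52 (adjusted p = 0.034). Rps15a and Rps12 gave -0.48 (adjusted p = 0.0055) and -0.47 (adjusted p = 0.03).

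In the large subunit the lowest estimates after Rpl41 belonged to Rpl36a, Rpl35a and Rpl24. Rpl36a, at the exit site for tRNA, was at 87.6, 101 and 98.5 CPM for WT at 3 h and 68.4, 67.4 and 51.99 for MKO (log2 fold change -0.62, SE 0.14, adjusted p = 0.0025). Rpl24, which reaches from the large towards the small subunit, was at 241, 258 and 247 CPM in WT 3 h against 181, 181 and 172 in MKO 3 h (log2 fold change -0.48, SE 0.11, adjusted p = 0.0028). In both genes all MKO libraries were below all WT libraries at 3 h. Rpl35a, a gene mutated in some cases of human Diamond-Blackfan anaemia, gave -0.50 (adjusted p = 0.0044).

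The stalk proteins, which recruit elongation factors to the large subunit, were each called lower at 3 h. Rplp0, the base of the stalk, was at 689, 687 and 639 CPM in WT at 0 h, 668, 680.1 and 658 in WT at 3 h, 531, 509.7 and 639 in MKO at 0 h and 539, 523 and 521 in MKO at 3 h. Its libraries at 3 h varied little within each group and did not overlap (log2 fold change -0.34, SE 0.07, adjusted p = 0.0015). The acidic protein gene Rplp1 was at 272, 272 and 214 CPM in MKO 3 h, against 314, 343 and 334 in WT 3 h. Rplp2 was at 170.3, 159 and 127 against 191, 209.6 and 203 CPM. MKO replicate 3 was the lowest library for both, and the groups did not overlap. Their differences were -0.39 (adjusted p = 0.025) and -0.40 (adjusted p = 0.044).

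Rpsa, a small subunit protein also known as a laminin receptor precursor, was at 537, 569 and 484 CPM in WT at 0 h, 536, 527 and 519 in WT at 3 h, 405, 401 and 522 in MKO at 0 h and 413, 409.9 and 400.2 in MKO at 3 h, and differed by -0.37 at 3 h (SE 0.09, adjusted p = 0.0037). Rps6, the substrate of S6 kinase below mTORC1, was at 484, 474 and 489 CPM for WT at 3 h and 375, 385 and 357 for MKO (log2 fold change -0.37, SE 0.10, adjusted p = 0.0074). Both genes had MKO libraries below all WT libraries at 3 h, and both overlapped at 0 h through replicate 3 of MKO. Rpl3, which helps to form the peptidyl transferase centre, was at 399.8, 410.4 and 369 CPM in WT at 0 h, 352, 357 and 349 in WT at 3 h, 323, 302 and 359.8 in MKO at 0 h and 307, 295 and 283 in MKO at 3 h. In their own counts Rpl3, Rpl7l1 and Rpl10 were the 3 genes whose genotype groups did not overlap at either time. With the counts of near-identical copies added, the 0 h groups of Rpl10 overlapped. Rpl3 had -0.26 (adjusted p = 0.0074) at 0 h and -0.26 (adjusted p = 0.0058) at 3 h.

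Rpl5 and Rpl11, which with 5S rRNA can bind and inhibit Mdm2, were not called. Rpl5 was at 393, 400.3 and 387 CPM for WT at 3 h and 351, 351 and 317 for MKO (log2 fold change -0.21, SE 0.08, adjusted p = 0.057). Rpl11 was at 269, 284 and 271 CPM in WT 3 h against 243, 241 and 209.8 in MKO 3 h (log2 fold change -0.25, SE 0.11, adjusted p = 0.087). The groups did not overlap for either gene. Among the other genes without a call were Rpl4 at -0.11 (adjusted p = 0.23), Rpl9 at -0.18 (adjusted p = 0.15) and Rpl36 at -0.36 (adjusted p = 0.055), and only Rpl22, Rpl27 and Rps21 had overlapping groups.

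The name rule also takes in paralogs, which are related copies of the gene with a protein of their own, and names that are annotated as pseudogenes. Rpl22, which binds RNA and has roles outside the ribosome, was at 106, 105 and 91.01 CPM in WT at 0 h, 96.1, 92.9 and 91.1 in WT at 3 h, 96.9, 91.3 and 123.5 in MKO at 0 h and 90.6, 93.1 and 77.8 in MKO at 3 h, with overlapping groups and -0.10 (adjusted p = 0.47) at 3 h. Its paralog Rpl22l1 was at 16.9, 17.1 and 18.04 CPM for WT at 3 h and 12.2, 15.04 and 11.03 for MKO, with no overlap (log2 fold change -0.45, SE 0.14, adjusted p = 0.017). Rpl7l1, related to Rpl7, was at 86.8, 90.6 and 80.7 CPM in WT at 0 h, 71.7, 80.9 and 72.1 in WT at 3 h, 69.2, 68.1 and 71.7 in MKO at 0 h and 70.9, 67.5 and 63.3 in MKO at 3 h. The 0 h groups were apart and the gene was lower in MKO, at a log2 fold change of -0.30 (adjusted p = 0.0041), with -0.16 (adjusted p = 0.089) at 3 h. Of the 8 names under the count minimum, Rpl39l had 88 counts over the 12 libraries, Rpl3l and Rpl6l 17 each and Rpl10l 5, and Rps12l1, Rps3a2, Rps3a3 and Rps4l had 0, which allows up to 0.0142 CPM (3 counts over all libraries, counting error only). Of these names Rpl39l, Rpl3l and Rpl10l are annotated as protein coding, and Rpl6l, Rps12l1, Rps3a2, Rps3a3 and Rps4l as pseudogenes. The members nearest the minimum were Rpl22l1, with a mean of 270.6 counts, and Rpl27, with 300.4, both well above it.

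Before LPS few of these genes were called. At 0 h, 7 of 78 were called lower in MKO and 0 higher, where 16.4% of all genes were called lower and 16.5% higher, so that the count lay below the background. DESeq2 called 10 lower and 0 higher, where 16.3% of all genes were called lower and 16.3% higher. In edgeR 20 genes had an unadjusted p under 0.05. The 7 were Rpl41, Rpl7l1, Rps4x, Rpl10, Rpl3, Rplp0 and Rpsa, with log2 fold changes from -0.36 to -0.26. The median was -0.19, 76 of 78 estimates were below 0, and for 3 genes MKO lay below WT with no overlap (background 19.8% lower and 19.6% higher). Of the 7 genes, 5 (71.4%) were also called lower at 3 h, where they make up 8.47% of the 59.

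The 0 h comparison depended on 2 libraries. Rps4x, an X-linked small subunit gene, was at 441, 459 and 402 CPM for WT at 0 h and 339, 329 and 407 for MKO, with replicate 3 the lowest of WT and the highest of MKO (log2 fold change -0.28, SE 0.08, adjusted p = 0.012). The same order held for Rplp0 and Rpsa above. Without replicate 3 of WT and of MKO at 0 h, 76 of 78 genes were called lower with a median of -0.40, where 23.5% of all genes were called lower. Leaving out MKO 0 h replicate 3 alone gave 64 (18.3% of all genes), and leaving out WT 0 h replicate 3 alone gave 24 (17.3% of all genes). Leaving out one of the other 0 h libraries gave 2 to 4, where 12.3% to 13.6% of all genes were called lower.

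In WT few of these genes were called after LPS. From 0 h to 3 h, 2 of 78 were called lower and 0 higher, against 14.6% and 17.8% of all genes. DESeq2 also called 2 lower, where 14.6% of all genes were, and in edgeR 3 genes had an unadjusted p under 0.05. The median change was -0.02 and the range ran from -0.29 to 0.15. For 2 genes, Rpl10 and Rpl3, all values after LPS were below those before, where 21.5% of all genes were apart in that direction and 24.1% in the other. The pair called was Rpl10, at 149.9, 144 and 133 CPM before and 121, 115 and 112 after LPS (log2 fold change -0.29, SE 0.07, adjusted p = 0.006), and Rpl7l1, at -0.20 (adjusted p = 0.041). Rpl10 values did not overlap, and those of Rpl7l1 did, by 1 library. The call on Rpl7l1 did not hold under the replicate block (adjusted p = 0.054), nor without replicate 1 or 2 of WT 0 h, replicate 1 or 3 of WT 3 h or replicate 1 of MKO 0 h (adjusted p from 0.054 to 0.16 in edgeR), and over all alternatives its adjusted p ran from 0.0002 to 0.22. With library size alone 28 of 78 were called lower, where 41.8% of all genes were, and without both 0 h libraries that stood apart 25 were called lower, where 21.7% of all genes were. The call on Rpl10 concerns a gene with a near-identical copy.

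In MKO, 1 of 78 was called lower after LPS and 0 higher, against 6.08% and 9.75% of all genes. DESeq2 called 2 lower (6.03% of all genes), and 10 genes had an unadjusted p under 0.05 in edgeR. The gene called in edgeR was Rpl10a, a large subunit protein of the L1 stalk, at 216, 198 and 274 CPM before and 192, 185 and 183 after LPS (log2 fold change -0.30, SE 0.09, adjusted p = 0.041). Its 3 h values were all lower, and MKO 0 h replicate 3 stood high. All 78 estimates were below 0, with a median of -0.20, and 3 genes were apart with lower values after LPS (background 15% lower and 19.3% higher). Without MKO 0 h replicate 3 the median was -0.04 and 0 genes were called, where 5.26% of all genes were called lower and 8.26% higher. Without MKO 0 h replicate 2, 18 were called lower, where 6.32% of all genes were.

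No gene was called for the interaction in edgeR, where 4.41% of all genes were called lower and 2.39% higher, or in DESeq2 (4.91% and 2.88%). In edgeR 2 of 78 had an unadjusted p under 0.05. The median was -0.19. Without MKO 0 h replicate 3 it was -0.01. Without both 0 h libraries that stood apart it was 0.06, with Rpl9 and Rps2 called higher, where 6.66% of all genes were. The genotype difference of these genes was therefore not shown to differ between 0 h and 3 h.

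The levels of the members differed together from library to library. As the deviation of log2 CPM from each gene's mean, their median was 0.19, 0.27 and -0.01 in WT 0 h and 0.11, 0.16 and 0.13 in WT 3 h. In MKO 0 h it was -0.13, -0.26 and 0.24, and in MKO 3 h -0.16, -0.16 and -0.34. Malat1, a long nuclear noncoding RNA, was at 31.7 and 29.9 CPM in replicates 1 and 2 of WT 0 h and 26.3 CPM in replicate 3 of MKO 0 h, the 3 libraries with the highest medians, and at 81.3 to 201 CPM in the other 9. Its part in these differences was not tested. Every one of the 78 genes was above its mean in replicates 1 and 2 of WT 0 h, and every one below it in MKO 3 h replicate 3. In that library the genes were also spread most, with an SD of 0.150 between genes against 0.0625 to 0.0895 in the other 11, and the lowest were Rps27 at -0.86, Rps28 at -0.85, Rpl39 at -0.77 and Rps29 at -0.70, with main transcripts of 345, 387, 612 and 390 bases.

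**Figure D2:**
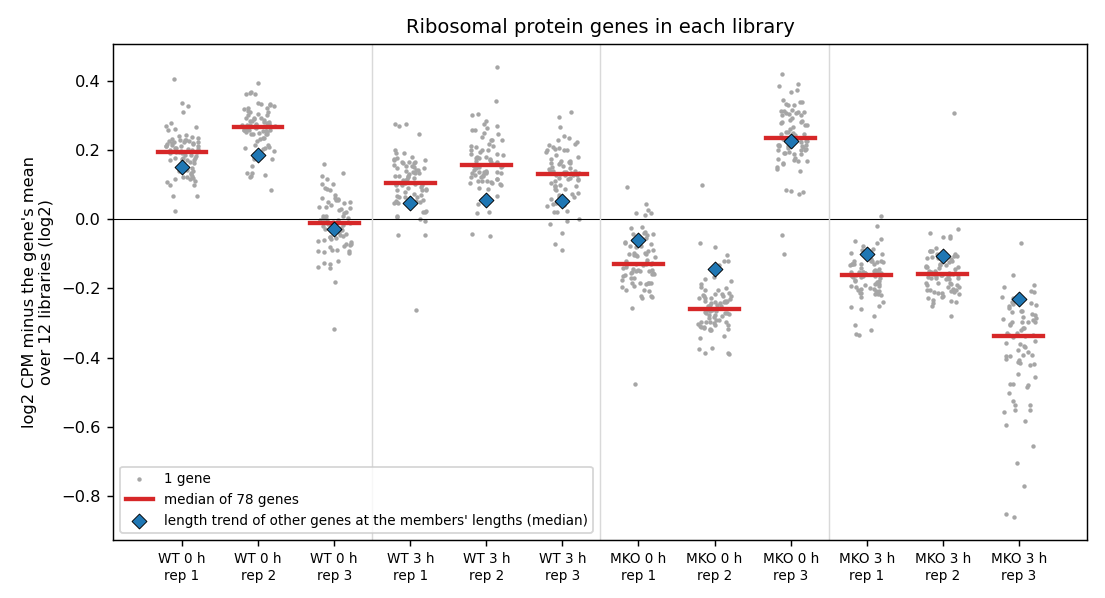
Log2 CPM of each ribosomal protein gene minus its mean over the 12 libraries (grey points), their median (red bar) and the trend of other genes at the same transcript lengths (blue diamond), by library. The medians of WT 3 h lie between 0.11 and 0.16 and those of MKO 3 h between -0.34 and -0.16, and the diamonds follow the medians.

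Transcript length moved with these medians. The main transcript of the 78 genes had a median of 803.5 bases, from 345 to 5130, in GENCODE M21. These are annotated lengths, and the transcripts these cells make were not measured. The longest is that of Rps15a, the only member of 4000 bases or more. A smooth trend of expression on transcript length, fitted over 11314 genes that are not members, gave at the members' lengths 0.15, 0.19 and -0.03 in WT 0 h, and 0.05, 0.06 and 0.05 in WT 3 h. For MKO 0 h it gave -0.06, -0.14 and 0.23, and for MKO 3 h -0.10, -0.11 and -0.23. Its sign was that of the members' median in all 12 libraries. In MKO 3 h against WT 3 h other genes under 500 bases had a median log2 fold change of -0.34 (90 genes) and those of 500 to under 1000 bases -0.20 (853 genes, 28.5% called lower), with 0.06 from 4000 bases on. The ribosomal protein genes had -0.40 (10 genes) and -0.37 (45 genes) in the same shortest classes, and -0.34 (19 genes) from 1000 to under 2000 bases, where other genes had -0.06.

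With each library's length trend taken out as an offset, 47 genes were called lower at 3 h, where 25.2% of all genes were. Their number included 45 of the 59, and the median over all members was -0.16. At 0 h that offset gave 25 lower and 1 higher, against 19.6% and 20.3% of all genes. Without both 0 h libraries that stood apart it gave 46 lower and 1 higher, against 21.9% and 22.3%. The higher gene was Rpl10a in both. The members' own log2 fold change at 3 h had a Spearman rho of 0.40 with transcript length across the 78 genes, a description over genes of the same 6 libraries. The part of transcript length in these differences was not tested.

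**Figure D3:**
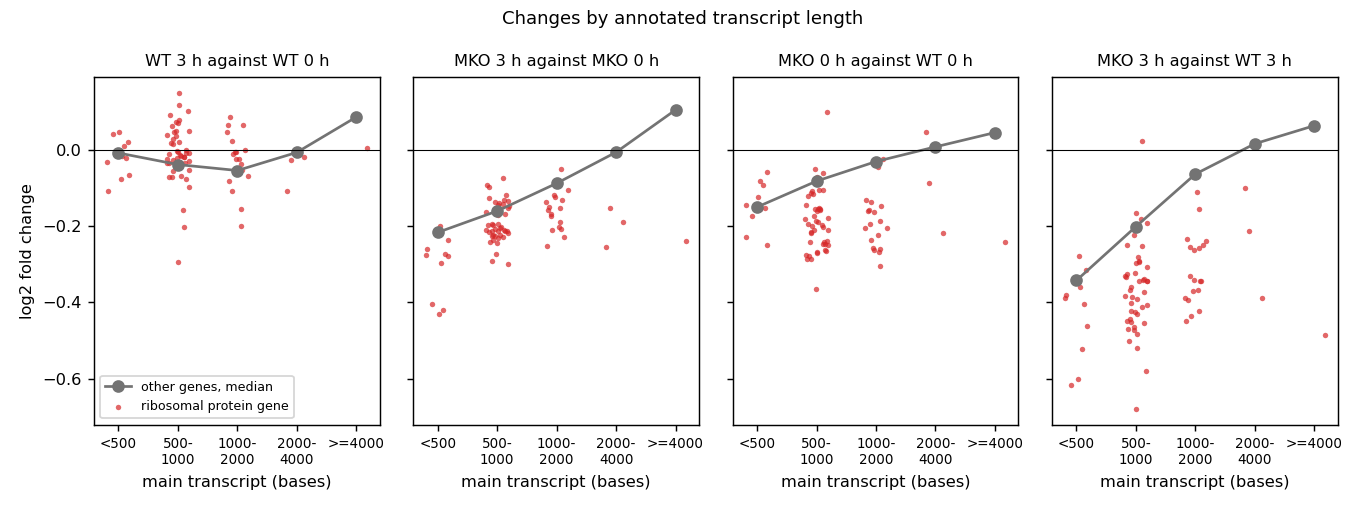
Log2 fold change of ribosomal protein genes (red points) and the median of other genes (grey line) by main transcript length in bases, for the 4 comparisons between groups. At 3 h the grey line goes from -0.34 under 500 bases to 0.06 from 4000 bases, and from 500 to under 1000 bases the members' median is -0.37 where the line is at -0.20.

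A few members share much of their sequence with expressed copies, and their counts are given with those of the copies. Counting a match of at least 95% identity over at least 80% of the shorter transcript, 52 members had no copy with a count, and the copies together held 4.04% of the members' counts. Rpl10-ps3 (chromosome 9) held 4.17 times the count of Rpl10, and Rpl27-ps3 10.6 times that of Rpl27. Rps12-ps3 (chromosome 19) held 0.70 of Rps12 and Rpl37rt (chromosome 5) 0.42 of Rpl37. How the authors' counting divides reads between such copies is not stated.

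Rpl10, a late-joining protein next to the peptidyl transferase centre, was at 121, 115 and 112 CPM for WT at 3 h and 109, 106 and 94.6 for MKO, with a difference of -0.17 (adjusted p = 0.08), and Rpl10-ps3 at 528, 557 and 550.5 against 435, 435 and 405 CPM. Added to its copies, Rpl10 was at 648, 671 and 662 CPM for WT at 3 h and 544, 541 and 499.6 for MKO, with no overlap and a called difference of -0.32. Its LPS change in WT was then -0.06 and its 0 h genotype difference -0.21, and neither call of its own count held. The 0 h groups, apart in its own count, overlapped in the sum, at 712, 731 and 623 CPM in WT and 545, 520 and 718 in MKO. Rpl27 was at 14.2, 17.3 and 17.3 CPM for WT at 3 h and 16.02, 21.04 and 12.8 for MKO, and with copies at 221, 216 and 212 against 182, 174 and 154 CPM. The groups overlapped in its own count and not in the sum, where the difference of -0.35 was called. Rps12 and Rpl37 with copies gave -0.50 and -0.47, both called, against -0.47 and -0.37 in their own counts.

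**Figure D4:**
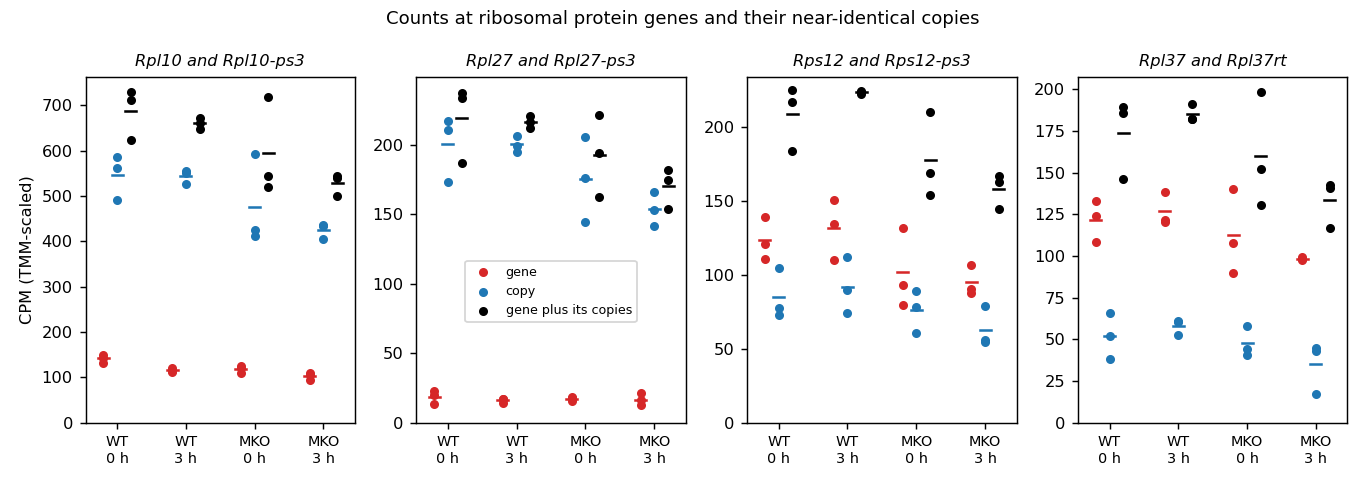
CPM of Rpl10, Rpl27, Rps12 and Rpl37 (red), of their most counted near-identical copy (blue) and of the gene plus all its copies (black) in each library, with the mean of 3 libraries as a bar. In MKO 3 h the black points lie under those of WT 3 h in each panel, and the red points of Rpl27 overlap.

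Per length, by the deposited TPM, the members were abundant and kept their order. The median member had a mean of 439 TPM over the 12 libraries and 72 of 78 had at least 100 TPM. The highest were Rps26 at 1812 TPM, Rplp1 at 1728 TPM and Rps24 at 1710 TPM, and the lowest Rpl27 at 31.6, Rpl22l1 at 43.4, Rps15a at 71.4 and Rpl7l1 at 80.04 TPM. The value of Rpl27 leaves out its near-identical copy Rpl27-ps3, which held 10.6 times its count, so its place as the lowest is not a level of its mRNA. The same holds for Rpl10 (164 TPM), whose copy Rpl10-ps3 held 4.17 times its count. The 10 highest held 32.3% of the summed TPM. Spearman's rho of member TPM was at least 0.986 between any 2 libraries. The deposited TPM followed the union of a gene's exons within 1% for 69.0% of 9419 genes with at least 50 counts in every library, and the main transcript for 1.89%, so genes with long alternative exons, such as Rps15a with 6270 bases, have a low TPM for their count.

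Members held 2.30%, 2.401% and 2.06% of all counts in WT 0 h and 1.89%, 1.96% and 1.91% in WT 3 h. In MKO they held 2.03%, 1.88% and 2.54% at 0 h and 1.86%, 1.86% and 1.64% at 3 h. The share was lower in every WT 3 h library than in every WT 0 h library, although the members' median log2 fold change after TMM scaling was -0.02 there. By TPM the means were 4.57% ± 0.224 in WT 0 h, 3.97% ± 0.0704 in WT 3 h, 4.44% ± 0.506 in MKO 0 h and 3.81% ± 0.254 in MKO 3 h (SD, n = 3). The summed count of the large subunit was 1.55 to 1.58 times that of the small subunit in the 6 WT libraries and 1.59 to 1.62 times in the 6 MKO libraries, a small difference given as a description.

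Ribosomal proteins outside the name rule were read in the same way. Rps27a, made as a fusion with ubiquitin, gave -0.32 (adjusted p = 0.048) at 3 h and was called lower. Fau, made as a fusion with a ubiquitin-like protein, was at 29.5, 43.3 and 38.9 CPM for WT at 3 h and 32.8, 27.5 and 21.7 for MKO, with -0.45 (adjusted p = 0.05), rounded from just under the threshold, and counts as lower. The paralog Rpl36al gave -0.39 (adjusted p = 0.013). Rps27l, a p53-induced paralog of Rps27, gave 0.21 (adjusted p = 0.28), an estimate above 0 without a call.

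Elongation factors and other mRNAs known for a TOP tract were called lower at 3 h in 11 of 24 and higher in 1 of 24, where 23% of all genes were called lower and 19.8% higher, with a median of -0.17. The count called lower was 3 of 24 without MKO 3 h replicate 2, where 17.7% of all genes were called lower. It was 5 to 7 without MKO 3 h replicate 3 or any 1 of the WT 3 h libraries (18.9% to 19.3% of all genes). With library size alone it was 0 (9.63% of all genes). Tpt1, which encodes a tubulin and calcium binding protein, gave -0.37 (adjusted p = 0.00063), Rack1 of the small subunit surface -0.25 (adjusted p = 0.0057), and Eef1a1, which brings tRNA to the ribosome, -0.26 (adjusted p = 0.0034). Eif4a2, an RNA helicase of initiation, was called higher at 0.32 (adjusted p = 0.0005). Pabpc1, the cytoplasmic poly(A) binding protein, rose with LPS in WT by 0.60 (adjusted p = 1.8e-05) and had an interaction of -0.46 (adjusted p = 0.018). In this list 4 of 24 were called lower at 0 h, near the 16.4% of all genes.

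Genes that control translation of these mRNAs went both ways at 3 h, with 5 of 19 higher and 3 lower, against 19.8% and 23% of all genes. With 1 library left out, 2 to 7 were called higher, where 15.8% to 24.3% of all genes were. The count was 2 without WT 3 h replicate 1 (16.5% of all genes). It was 3 without replicate 2 or 3 of WT 3 h or replicate 1 of MKO 3 h (15.8% to 16.4%). The count called lower with 1 library left out was 1 to 3, where 17.7% to 24.4% of all genes were. It was 1 without MKO 3 h replicate 2 (17.7%). Larp4, an RNA-binding protein of ribosomal protein mRNAs, gave 0.48 (adjusted p = 0.0014) and Akt1s1, an mTORC1 inhibitor subunit, 0.45 (adjusted p = 0.005). Larp4b gave -0.46 (adjusted p = 0.0014) and the cap-binding Eif4e -0.28 (adjusted p = 0.0093). Larp1 itself gave 0.05 (adjusted p = 0.83). Mlst8, a subunit of mTORC1, fell with LPS in WT by 0.95 on the log2 scale (adjusted p = 8.7e-06).

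Of 17 tested genes for ribosome quality and for handling free ribosomal proteins, 4 were higher and 2 lower at 3 h, against 19.8% and 23% of all genes, and 3 to 6 were higher and 1 to 2 lower with 1 library left out. Over all genes 15.8% to 24.3% were called higher and 17.7% to 24.4% lower at 3 h with 1 library left out. Mdm2, the p53 ligase that Rpl5 and Rpl11 bind, rose with LPS by 2.06 in WT and 1.34 in MKO, and was lower in MKO at 3 h, with -0.38 (adjusted p = 1.4e-05). Aamp, whose yeast counterpart is a chaperone of Rpl10, gave 0.37 (adjusted p = 8.6e-05), Grwd1, whose yeast counterpart is a chaperone of Rpl3, 0.58 (adjusted p = 0.00099), and Usp10, a deubiquitinase of small subunit proteins, 0.41 (adjusted p = 0.0011). The 77 mitochondrial ribosomal protein genes, whose products form a separate ribosome, had 2 higher and 9 lower at 3 h with a median of -0.03, and with 1 library left out 1 to 9 were higher (9 without MKO 0 h replicate 3) and 5 to 13 lower (5 without replicate 2 or 3 of MKO 3 h). Among these Mrpl52 gave -0.60 (adjusted p = 0.00071), Mrpl16 -0.58 (adjusted p = 0.00049) and Mrps2 0.47 (adjusted p = 0.00015). With LPS in WT 16 of the 77 were called lower and 1 higher, where 14.6% of all genes were called lower and 17.8% higher. The count called lower was 8 to 30 with 1 library left out. It was lowest without WT 0 h replicate 1 or WT 3 h replicate 3, where 11.9% and 11.8% of all genes were called lower. It was highest without MKO 0 h replicate 3, where 18.4% of all genes were. Among the mitochondrial ribosomal protein genes Mrpl49 gave -0.72 and Mrpl44 -0.50.

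**Figure D5:**
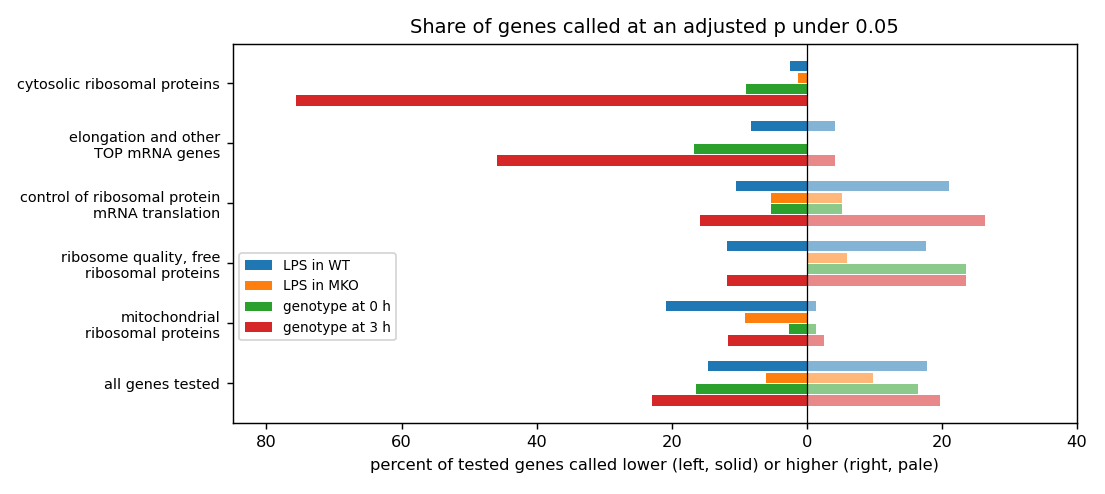
Percent of tested genes called lower (left, solid) or higher (right, pale) in each of 4 comparisons, for the 78 ribosomal protein genes, the 4 other lists and all 12455 genes tested. The longest bar is that of the ribosomal protein genes for genotype at 3 h, 59 of 78.

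Members with the tract at the annotated start had a median genotype difference at 3 h of -0.40 (13 genes), and members without it -0.34 (46 genes). Using a window within 15 bases of the start the medians were -0.36 (41 genes) and -0.36 (18 genes). Rpl41 and Rps28, whose windows hold no such stretch, were among the genes with the lowest estimates, as were Rpl35a and Rps15a, which have one at the start. These are descriptions of the same 59 genes, and whether tract and difference go together was not tested.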

How the data were processed

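RNA libraries were made from total RNA of peritoneal macrophages with an Illumina protocol, per the labels. The submitters' processing notes name fastp and mm10. For aligner, counter, strand setting and annotation release no source used here gives a name or setting. The authors deposited raw counts per gene and library and TPM values for 48709 genes, per the file headers. Transcript lengths came from GENCODE M21, which holds 99.3% of these IDs.

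A quasi-likelihood model in edgeR 4.0.16 (R 4.3.3) was fitted to the counts of all 12 libraries with a mean for each of the 4 groups and TMM factors. filterByExpr kept 12455 genes, and p-values were adjusted over all of them at a threshold of 0.05. The SE was taken as the size of the log2 fold change over the root of its F statistic. The deposited TPM were used only for levels between genes and for shares. The fit was also run on simulated counts with known changes. These had the same dispersion for every gene, no library that stood apart and no length trend. The simulation therefore does not bear on how those features act on the calls. DESeq2 1.42.0 and the settings of the closing section were alternatives. Near-identical copies were found with blastn 2.17.0.

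Members and lists were chosen with earlier results of these data known. Named genes are those with the 10 largest changes per comparison among called members, a fixed set of members of known role, and up to 3 genes per list by p. Rpl4, Rpl9, Rpl36, Rps21, Rpl37, Rpl39, Rps29, Rps2, Larp1 and the near-identical copies were chosen after their values were seen. A result for 1 gene that this rule names is not reported here. Total counts of 14762709 to 20778862 limit the precision of low genes.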

Additional observations from a re-analysis of the deposited data

How the results depend on the processing

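Percentages in parentheses are the share of all genes tested that were called in the same direction in that setting. The members' median was below 0 at 3 h under all alternatives run. The count called lower, 59 (23%), was 3 with library size only (9.63%) and 19 with replicates 1 and 2 summed (14.1%). With 1 library left out it was 24 to 70 (17.7% to 24.4%). It was 43 with the replicate number as a block (21.1%) and 47 with the length trend offset (25.2%). A filter at a mean of 5 CPM gave 45 (23.4%) and only the groups compared 75 (28.2%). At 0 h, 7 were lower (16.4%), against 1 with library size only (9.62%), 1 with only the groups compared (10.8%) and 15 with no filter (9.48%). It was 0 with replicates 1 and 2 summed (7.91%) and 76 without both 0 h libraries that stood apart (23.5%). With 1 library left out it was 2 to 64 (12.3% to 18.3%). Length offsets gave 25 (19.6%), 46 without those 2 libraries (21.9%) and 18 by union exon length (18.4%), with 1 higher in the first pair (20.3% and 22.3%). For LPS in WT, 2 were lower (14.6%), against 28 with library size only (41.8%), 1 with the replicate block (13.3%) and 4 with only the groups compared (15.8%). It was 25 without both libraries (21.7%), 0 with replicates summed (8.92%) and 1 to 4 with 1 library left out (11.6% to 18.4%). Adding near-identical copies gave 1 (14.7%). The length offsets gave 6 higher (21.4%) and 3 lower (16.6%), and without both libraries 7 higher (24.6%) and 6 lower (19.3%). By union exon length they gave 3 higher (20%) and 1 lower (15.7%). For LPS in MKO, 1 was lower (6.08%), against 13 with library size only (14.1%), 5 with no filter (4.22%) and 2 with DESeq2 (6.03%). It was 0 with the replicate block (4.71%), with only the groups compared (4.32%) or with replicates summed (1.99%). The length offset without both libraries gave 2 (8.14%), and 1 library left out gave 0 to 18 (3.39% to 7.01%). The interaction had 0 (4.41% lower and 2.39% higher), against 2 higher without both libraries (6.66%). With the length offset as well it had 1 lower (12.5%) and 1 higher (6.98%). The cause of these differences was not tested.

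Among named members, 3 values that were not called changed sign and were called under an alternative. Rplp0 for LPS in WT was 0.074 with the length offset without both libraries, Rpl22 at 0 h was -0.16 without both libraries, and Rpl27 at 3 h was -0.35 with copies added. Same-numbered replicates did not deviate in the same direction (correlations of deviations from -0.34 to 0.08), so numbers were not taken to pair samples. Between WT 0 h and MKO 0 h the correlations were -0.15, -0.09 and -0.34 for replicates 1, 2 and 3, so the third replicates deviated in opposite directions. Every gene called lower at 3 h under the block was among the 59. Settings chosen after seeing the data were the length offset without both libraries, the union exon length, the added copies and the tract window. With 3 libraries a group, of which 1 stands apart in each 0 h group, a missing call does not show equal levels. The length trend moves with the members in all 12 libraries, and its part was not tested.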
